A study of Sus scrofa with 41 samples.

Results

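Psoas major muscles with a high leukocyte score were compared with muscles with a low score. The score of a pig was the mean, over PTPRC, LCP1, CD79A and C1QA, of the z-score over pigs of log2(CPM + 1), where CPM is the count of read pairs on a gene per 1000000 read pairs on all genes of that pig. The 10 pigs with the highest score and the 10 with the lowest were taken out of 41, which left 21 pigs between them. The pigs were chosen by the measured levels of these 4 genes, so the levels of these genes and of the score in the 2 groups are given as a description, without a test. The comparison shows which other transcripts rose or fell together with the score in the same libraries, not the effect of a treatment.

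The series holds 1 muscle RNA library from each of 41 purebred uncastrated boars, 13 Danbred Duroc and 28 Danbred Landrace, sequenced to relate muscle transcripts to feed efficiency. No pig was treated, and muscle was taken just after slaughter at about the same body weight and kept in RNAlater. The labels give for each pig the breed, the age, the RNA integrity number (RIN), the feed conversion ratio (FCR, kg of feed per kg of gain) and a batch from 1 to 5, which the study's methods tie to the day of slaughter. The 10 high-score pigs were all Landrace, aged 147 to 166 days, 8 from batch 2 and 2 from batch 3. The 10 low-score pigs were 4 Duroc and 6 Landrace, aged 140 to 160 days, with 1 from batch 1, 1 from batch 3, 2 from batch 4 and 6 from batch 5. Batch 3 was thus the only batch with pigs in both groups, and in the comparison of 10 against 10 the score and the batch can hardly be told apart.

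PTPRC encodes CD45, a phosphatase on the surface of nearly all white blood cells, and LCP1 an actin-bundling protein of leukocytes. CD79A is part of the B cell receptor complex, and C1QA a chain of the complement protein C1q, which in muscle is made mainly by resident macrophages. Skeletal muscle is built of multinucleate fibres, but between them lie capillaries, fibroblasts, fibro-adipogenic cells, satellite cells and leukocytes, among which macrophages are the most common. In RNA from whole tissue, a lower level can come from fewer cells of a type or from less RNA per cell, and these cannot be told apart.

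The scores ran from 1.58 in Landrace pig 11 to -1.68 in Landrace pig 21. The means of both groups lay 2.30 apart. The last pig taken into the high group had a score of 0.603 and the next pig below it 0.557, and the last pig taken into the low group had -0.631 and the next pig above it -0.609, so neither border falls in a gap. By batch, the scores had a mean of 0.635 ± 0.587 (SD, n = 15) in batch 2, 0.198 ± 0.729 (n = 9) in batch 3, -0.580 ± 0.820 (n = 5) in batch 4 and -0.654 ± 0.709 (n = 11) in batch 5.

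**Figure D1:**
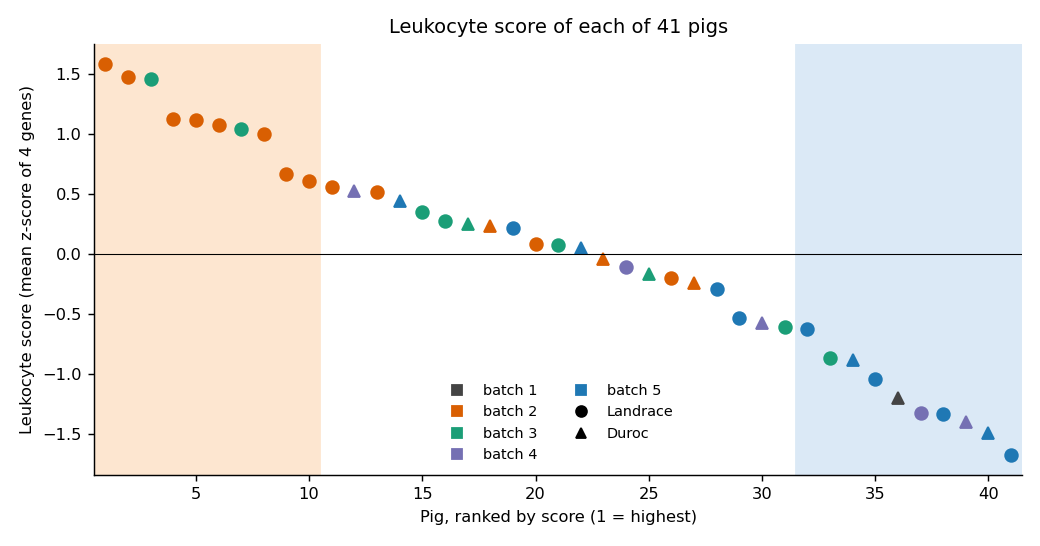
Leukocyte score (mean z-score of 4 genes) of each of 41 pigs in order of rank. Colours give the batch, circles Landrace and triangles Duroc, and the shaded ranges hold the 10 highest and the 10 lowest scores. The 10 highest are all Landrace pigs of batches 2 and 3, while 6 of the 10 lowest are from batch 5.

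PTPRC reached 4.17, 4.51 and 7.98 CPM (lowest, median and highest) in the high group and 0.708, 1.07 and 1.86 CPM in the low group. LCP1 had medians of 11.9 and 2.65 CPM, and C1QA of 32.2 and 7.22 CPM. CD79A was low throughout, with 9 to 37 read pairs in a pig. Its score value therefore carries more counting error than those of the other 3 genes. The labelled cell types were then checked with further markers. Other leukocyte genes followed the score, but CD79B, the partner of CD79A, had at most 11 read pairs in any of the 41 pigs. CD79B medians were 0.0589 CPM in the high group and 0.0608 CPM in the low group. MS4A1, which encodes CD20, had at most 12 read pairs, with medians of 0.233 and 0.0615 CPM. The B cell part of the score thus rested on few reads of a gene whose partner was near 0 in both groups. Other B cell genes were not near 0 in the high group. CD22, a B cell lectin, had medians of 0.527 and 0.123 CPM, with 9 of 10 high-score pigs above all low-score pigs. The summed level of the 13 B cell genes, which do not include CD79A, was 4.13 to 6.74 CPM in the high group and 1.52 to 3.68 CPM in the low group, without overlap.

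Each score gene was also looked at in groups built from the other 3 genes. Without PTPRC, 9 of the 10 high and 9 of the 10 low pigs stayed in their group, and PTPRC was above all low pigs in 9 of the 10 high pigs. The same held for LCP1 in 10 of 10 pigs and for C1QA in 9 of 10. For CD79A it held in only 4 of 10.

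**Figure D2:**
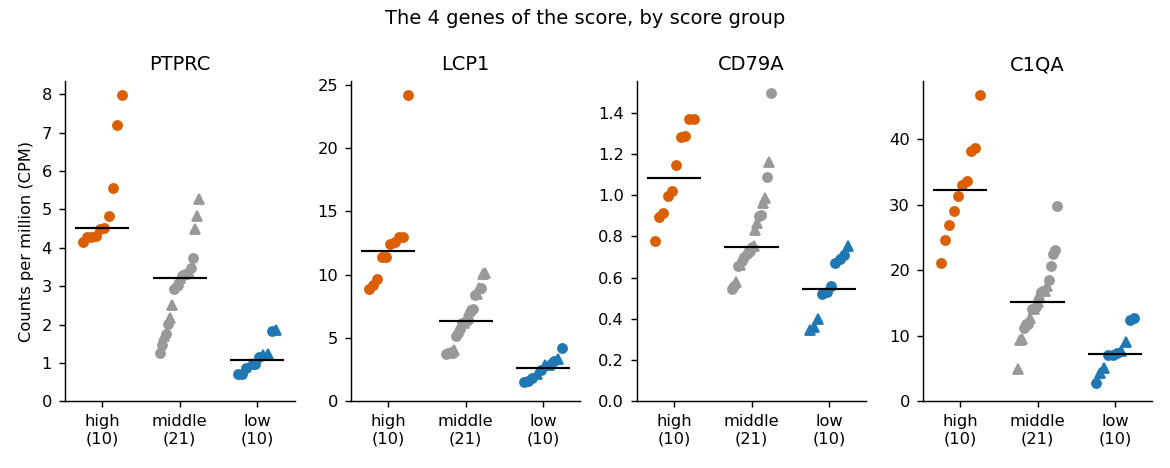
CPM of the 4 score genes in the 10 high, 21 middle and 10 low pigs. Each point is 1 pig (circle Landrace, triangle Duroc) and bars are medians, which for PTPRC are 4.51 CPM in the high group and 1.07 CPM in the low group. These genes defined the groups, so no test belongs to this plot.

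Libraries held 22588717 to 25845886 read pairs on genes in the 20 pigs. The high group had a higher mean total (25496617 ± 232066 against 24685448 ± 901636, SD, n = 10 each, permutation p = 0.00348, adjusted over 6 measures 0.0104). It also had a higher share of counted read pairs that fell on genes (79.9 ± 0.642% against 77.6 ± 2.63%, permutation p = 0.00194, adjusted 0.0104). The mean RIN was 8.10 ± 0.149 against 7.68 ± 0.527 (permutation p = 0.032, adjusted 0.064). Duroc pig 10, in the low group, stood apart with 71.1% of read pairs on genes and a RIN of 7.0. TMM scaling factors, which correct each library for the share of reads taken by very abundant genes, were 0.995 to 1.18 in the high group and 0.700 to 1.03 in the low group. RIN and breed were terms of the fit. All 4 Duroc pigs of the comparison were in the low group, so that group alone set the breed term. The log2 changes of 10 against 10 therefore contrast the 10 high-score pigs with the 6 low-score Landrace pigs. The Duroc pigs enter these changes only through the RIN term, the scaling and the spread. The CPM ranges, medians and overlaps include the Duroc pigs. The part that depth, RNA integrity and read assignment had in the results below was not tested.

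In the comparison of 10 against 10, 11142 genes other than the score genes were tested with edgeR's quasi-likelihood test. Of these, 1538 (13.8%) were higher and 980 (8.8%) lower in the high-score pigs at a Benjamini-Hochberg adjusted p under 0.1, in all 22.6% of the genes. The sizes were uneven. The median change of the higher genes was 0.99 on the log2 scale, and that of the lower genes -0.37. For 543 genes (4.87%) every high-score pig lay above every low-score pig in CPM, and for 0 genes every high-score pig lay below. The higher genes had a higher median CPM in the high group in 1537 of 1538 cases. The lower genes had a lower median CPM in only 541 of 980. Unlike the fit, the median CPM is not adjusted for breed, RIN or TMM scaling. In the fit with breed and RIN, 957 of the 980 had a value below 0 with library size alone too.

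Most of the lower calls depended on the scaling. With library size alone in place of TMM, the median of all tested genes moved from -0.04 to 0.19, a shift of 0.23. Then 2558 genes were called higher and 41 (0.368%) lower, so that 98.4% of the calls were higher, against 61.1% with TMM. Small lower values are therefore given relative to the other genes of a library. Batch was then added. In a fit of the score as a number over all 41 pigs with breed, RIN and batch, 1381 genes (12.4%) rose and 648 (5.82%) fell with the score. Of the 1538 higher genes, 1157 (75.2%) were called the same way there, and of the 980 lower genes 374 (38.2%). The 20 pigs are also in that fit, so it is not a separate set of samples. Adding batch to the fit of 10 against 10 left 251 higher (2.25%) and 38 lower genes (0.341%), a value that rests on the 3 pigs of batch 3 that are in these groups. Of the genes named by rule, 68 were called higher and 30 lower in the comparison of 10 against 10, and that fit kept 21 and 2 of these calls, with the direction kept in 67 and 30. Below, "with batch" means the fit of 41 pigs unless the fit of 10 against 10 is named.

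The 21 middle pigs were not used for the comparison. In them, 0 genes passed an adjusted p of 0.1 for the slope on the score with edgeR (877 rose and 850 fell at an unadjusted p under 0.05, 7.87% and 7.63% of those tested). The slope was above 0 for 1412 of the 1538 higher genes (91.8%) and below 0 for 843 of the 980 lower genes (86.0%), while 51.1% of all tested genes had a slope above 0. At an unadjusted p under 0.05, 500 of the higher genes (32.5%) moved the same way and 2 the other way. For the lower genes these numbers were 259 (26.4%) and 1. The score of the middle pigs comes from their own libraries. Breed and RIN were terms of this fit and batch was not, although these pigs came from batches 2 to 5 (7, 6, 3 and 5 pigs).

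General leukocyte genes were higher without exception among those tested, a direction that the choice of the score genes builds in. All 24 tested members of the pan-leukocyte list were called higher, with a median of 1.71 against -0.04 over all tested genes, where 13.8% were higher, and 14 did not overlap between the groups, against 4.87% of all tested genes. The 24 were also called with batch in the fit of 41 pigs, against 12.4% of all tested genes, and 4 were called in the fit of 10 against 10 with batch, against 2.25%. Their summed level was 103 to 193 CPM in the high group and 32.1 to 82.0 CPM in the low group. ITGB2, the shared beta chain of the leukocyte integrins, had 3.33, 4.86 and 7.11 CPM (lowest, median and highest) in the high group and 0.60, 1.15 and 3.05 CPM in the low group. The groups did not overlap, and the change was 2.49 ± 0.269 (log2, SE), with an adjusted p of 5.08e-05. DOCK2, which activates Rac in migrating leukocytes, had 1.57, 2.76 and 3.51 CPM against 0.240, 0.433 and 0.658 CPM, again without overlap. It changed by 2.75 ± 0.313 (log2, SE), with an adjusted p of 5.08e-05. CD48, a surface ligand of lymphocytes and monocytes, rose by 2.19 (adjusted p = 0.00191).

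Macrophage genes were mostly higher, a direction that the choice of pigs by C1QA builds in. Of the 21 tested monocyte and macrophage genes, 20 were higher and 0 lower, against 13.8% and 8.8% of all tested genes, with a median of 1.63. With batch 19 rose (12.4% of all tested genes), and 5 in the fit of 10 against 10 with batch (2.25%). CD163, the haemoglobin scavenger receptor of resident macrophages, had 17.8, 21.5 and 32.2 CPM in the high group and 1.84, 4.05 and 7.00 CPM in the low group. The lowest high-score pig was above the highest low-score pig, and CD163 rose by 2.26 ± 0.263 (log2, SE), with an adjusted p of 5.08e-05. With batch in the fit of 41 pigs, its slope was 0.86 per score unit, adjusted p = 1.37e-05. CSF1R, the receptor for the growth factor that keeps macrophages alive, had 11.9, 13.4 and 24.2 CPM against 1.00, 2.93 and 4.88 CPM. The groups did not overlap either, and CSF1R rose by 2.49 ± 0.296 (log2, SE), with an adjusted p of 6.44e-05. MRC1, the mannose receptor CD206, rose by 2.51 (adjusted p = 7.05e-05), and F13A1, a coagulation factor subunit made by tissue macrophages, by 2.33 (adjusted p = 1.63e-04). The other 2 chains of C1q followed C1QA, by which the pigs were chosen, as C1QB rose by 1.59 and C1QC by 1.78. The exception was FOLR2, a folate receptor of tissue macrophages, with 8.62 CPM against 8.37 CPM at the median and a difference of 0.032 (adjusted p = 0.931). IRF5, a transcription factor of inflammatory macrophages, rose by 2.07 (adjusted p = 7.05e-05).

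Among the 15 higher genes with the smallest p that had a symbol, further genes act in signalling and in the cytoskeleton. LASP1, an actin-binding protein, had 15.0, 16.8 and 21.7 CPM against 5.38, 8.03 and 10.3 CPM, without overlap, and rose by 1.24 ± 0.143 (log2, SE), with an adjusted p of 5.08e-05. TNFRSF1B, the second receptor of tumour necrosis factor, had 19.7, 22.7 and 26.1 CPM against 7.76, 9.05 and 13.1 CPM, also without overlap, and rose by 1.12 ± 0.142 (log2, SE), with an adjusted p of 8.40e-05. IQGAP2, a scaffold protein, rose by 1.86, DOCK10 by 2.82, RPS6KA1, a kinase downstream of ERK, by 2.00, and TNFAIP3, an inhibitor of NF-kB signalling, by 1.60. FOXRED2, of the endoplasmic reticulum, rose by 1.62 and overlapped between the groups. CLU, which encodes the secreted chaperone clusterin, rose by 1.49, with 24.3 to 52.5 CPM against 11.2 to 35.4 CPM. All of these also rose with batch in the fit of 41 pigs, with slopes from 0.40 to 0.91 per score unit. In the fit of 10 against 10 with batch, TNFRSF1B (adjusted p = 0.125), TNFAIP3 (0.125) and DOCK10 (0.103) lost their calls.

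Lymphocyte genes were sparse. Of the T and NK cell list only 6 genes passed the filter on low counts and 20 did not. Of the 6, 4 were higher and 0 lower, against 13.8% and 8.8% of all tested genes. With batch 5 rose (12.4% of all tested genes). CD3E, a chain of the T cell receptor complex, had 1.14, 2.36 and 6.19 CPM in the high group and 0.480, 0.775 and 1.38 CPM in the low group. All but 1 of the high-score pigs were above every low-score pig, and CD3E rose by 1.84 ± 0.394 (log2, SE), with an adjusted p of 0.00400. CD2, an adhesion receptor of T and NK cells, rose by 2.35 (adjusted p = 0.00817), and TCF7, a transcription factor of naive and memory T cells, by 2.05 (adjusted p = 0.00412). In the fit of 10 against 10 with batch none of the list was called, with CD3E at 0.97 (adjusted p = 0.571), CD2 at 0.91 (adjusted p = 0.704) and TCF7 at 2.51 (adjusted p = 0.196). The untested rows reached at most 73 read pairs. CD4 was among them, with 0.592 to 1.33 CPM in the high group and 0.193 to 0.576 CPM in the low group, which do not overlap. CD8A had 0.434 to 2.91 CPM against 0.0400 to 0.443 CPM, with 9 of 10 high-score pigs above all low-score pigs.

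For B cells, 12 of 13 genes were untested and the largest of them had 52 read pairs. TNFRSF13C, the receptor for the B cell survival factor BAFF, was the gene tested and rose by 1.06 (adjusted p = 0.0392). BANK1, a B cell scaffold protein, had 0.816 to 2.02 CPM against 0.120 to 0.753 CPM, and BTK, a kinase of B cells and of myeloid cells, had 0.476 to 1.02 CPM against 0.0393 to 0.448 CPM. Neither overlapped between the groups, unlike CD79B. Of 4 tested plasma cell genes, JCHAIN, the joining chain of secreted antibodies, rose by 0.96 and PRDM1 by 1.38. XBP1 was at 0.062 (adjusted p = 0.759). In the mast cell list, 2 of 3 tested genes were higher, against 13.8% of all tested genes, but 1 with batch and 0 without Duroc pig 10. MS4A2, a chain of the IgE receptor, was the gene called with batch (1.56, adjusted p = 0.00971, with batch 0.0230). IRF8, a factor of dendritic cells and monocytes, rose by 1.96 (adjusted p = 3.70e-04).

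Neutrophil genes were near 0, red cell genes were not called, and the 1 tested platelet gene was higher. None of the 12 neutrophil genes passed the filter, since the largest count was 30 read pairs, and their summed level was 0.707 to 1.80 CPM in the high group and 0.40 to 2.04 CPM in the low group. MPO, the granule peroxidase of neutrophils, was at 0 in all 10 high-score pigs. The 3 tested red cell genes were not called (median -0.12), with a summed level of the list of 20.6 to 93.0 CPM against 13.9 to 137 CPM. HBB, the beta chain of haemoglobin, had 18.3, 38.1 and 86.8 CPM against 10.7, 28.7 and 129.6 CPM, ranges that overlap widely, and its difference of -0.12 has an adjusted p of 0.896 and turns to 0.10 with library size alone. ITGB3, an integrin chain of platelets that endothelium and macrophages also carry, rose by 1.54 (adjusted p = 0.00707, with batch 0.00331), and had an adjusted p of 0.199 in the fit of 10 against 10 with batch.

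Complement had the largest median change of the lists. All 7 tested complement genes were higher (median 2.60), 5 without overlap, against 13.8% and 4.87% of all tested genes. With batch 6 rose (12.4% of all tested genes), and 4 in the fit of 10 against 10 with batch (2.25%). C3, the central protein of all complement pathways, had 12.9, 28.3 and 109 CPM in the high group and 0.601, 2.28 and 3.69 CPM in the low group. The lowest high-score pig was thus above the highest low-score pig, and C3 rose by 4.17 ± 0.607 (log2, SE), with an adjusted p of 2.31e-04. With batch its slope was 1.73 per score unit, adjusted p = 1.35e-07. C4A, which forms the C3 convertase together with C2, had 9.30, 21.5 and 74.7 CPM against 0.561, 1.85 and 3.47 CPM, without overlap, and rose by 3.52 ± 0.688 (log2, SE), with an adjusted p of 0.00224. C2 rose by 3.12 (adjusted p = 0.00316) and CFI, a protease that inactivates C3b, by 2.60 (adjusted p = 0.00144). CFD, an adipocyte protease of the alternative pathway, had the smallest change of the list, 0.59 (adjusted p = 0.0631), and was not called with batch (adjusted p = 0.139). Both pigs of batch 3 in the high group had the highest C3 levels of that group.

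Genes of antigen presentation were mostly higher. Of 6 tested MHC class II genes, 5 were higher (median 1.37), against 13.8% of all tested genes. With batch 5 rose (12.4% of all tested genes), and 0 were called in the fit of 10 against 10 with batch. SLA-DMB, a chain of the peptide exchange factor of class II, had 6.34, 9.21 and 11.0 CPM against 1.81, 2.67 and 3.22 CPM, with no overlap, and rose by 1.62 ± 0.210 (log2, SE), with an adjusted p of 9.88e-05. SLA-DQB1, a class II beta chain (chromosome 7, 24969034 to 24977238, Sscrofa11.1), rose by 1.54 (adjusted p = 1.59e-04). CIITA, the master regulator of class II genes, did not follow them, with 31.5 CPM against 37.2 CPM at the median and a difference of -0.27 (adjusted p = 0.122). Of 7 tested class I and processing genes, 6 were higher (median 1.00), against the same 13.8%, and 6 with batch, against the same 12.4%. In the fit of 10 against 10 with batch 0 of the 7 were called. Among the higher genes were the inducible proteasome subunits PSMB8 (1.88) and PSMB9 (2.10) and the peptide transporter TAP1 (1.21). SLA genes lie in a family of close copies, and reads shared between copies could not be placed in the counting.

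Of 24 tested interferon-stimulated genes 8 were higher and 0 lower, against 13.8% and 8.8% of all tested genes, with a median of 0.49. With batch 7 rose (12.4% of all tested genes). In the fit of 10 against 10 with batch 0 were called, and 16 of the 24 kept their direction. Among the called genes were IRF1, IFIT5, STAT2, CXCL9, CXCL10, GBP1 and GBP2. The antiviral genes MX1 (0.37, adjusted p = 0.716), ISG15 (-0.35, adjusted p = 0.682), OAS2 (0.41, adjusted p = 0.492), IFIT1 (0.37, adjusted p = 0.426) and RSAD2 (-0.14, adjusted p = 0.916) were not called. CXCL9, a chemokine of the response to interferon gamma, had 6.08, 14.3 and 35.9 CPM in the high group and 0.354, 0.564 and 11.07 CPM in the low group. The groups overlapped through 1 low-score pig, and 7 of 10 high-score pigs were above every low-score pig. CXCL9 rose by 4.80 ± 0.706 (log2, SE), with an adjusted p of 2.46e-04, the largest change among the named genes, with a slope of 1.08 per score unit, adjusted p = 0.0236 in the fit with batch. In the fit of 10 against 10 with batch CXCL9 was at 4.48 (adjusted p = 0.138). CXCL10, its close relative, rose by 3.08 (adjusted p = 0.00846), and GBP1, a guanylate-binding protein, by 3.24 (adjusted p = 0.00859). GBP1 overlapped between the groups because Duroc pig 12, in the low group, had 33.1 CPM, and it was not called with batch (adjusted p = 0.106). The count of called genes was 16 without C1QA in the score and 14 within Landrace, so the list's count depends on how the pigs are chosen.

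Ligands and receptors of leukocyte traffic were mostly higher. Of 11 tested chemokines and cytokines 8 rose (median 0.82), and of 18 receptors 13 rose (median 0.97), against 13.8% of all tested genes. With batch these counts were 7 and 11, against 12.4%, and in the fit of 10 against 10 with batch 2 and 1. Without Landrace pig 28, 9 receptors were higher. CCL2, which draws monocytes into tissue, had 1.63, 4.98 and 13.5 CPM against 0.692, 1.00 and 2.30 CPM and rose by 2.30 ± 0.467 (log2, SE), with an adjusted p of 0.00271, but was not called with batch (adjusted p = 0.104). CSF1, the ligand of CSF1R, rose by 1.46 (adjusted p = 0.00200), and IL16, a chemoattractant for CD4+ cells, by 1.77 (adjusted p = 1.24e-04). CXCL12, a chemokine made by stromal cells, had 37.3 CPM against 37.2 CPM at the median and was not called (0.028, adjusted p = 0.930). Among the receptors, CSF2RB, the shared beta chain of the GM-CSF receptor, rose by 2.52 and IL2RB by 2.17. TLR4, the lipopolysaccharide receptor, rose by 2.48 (adjusted p = 0.00103) and its adaptor MYD88 by 1.02 (adjusted p = 2.53e-04). CD80, a costimulatory ligand, was the only tested gene of the innate sensor list that was lower (-0.43, adjusted p = 0.0110). It was not called with batch (adjusted p = 0.114).

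**Figure D3:**
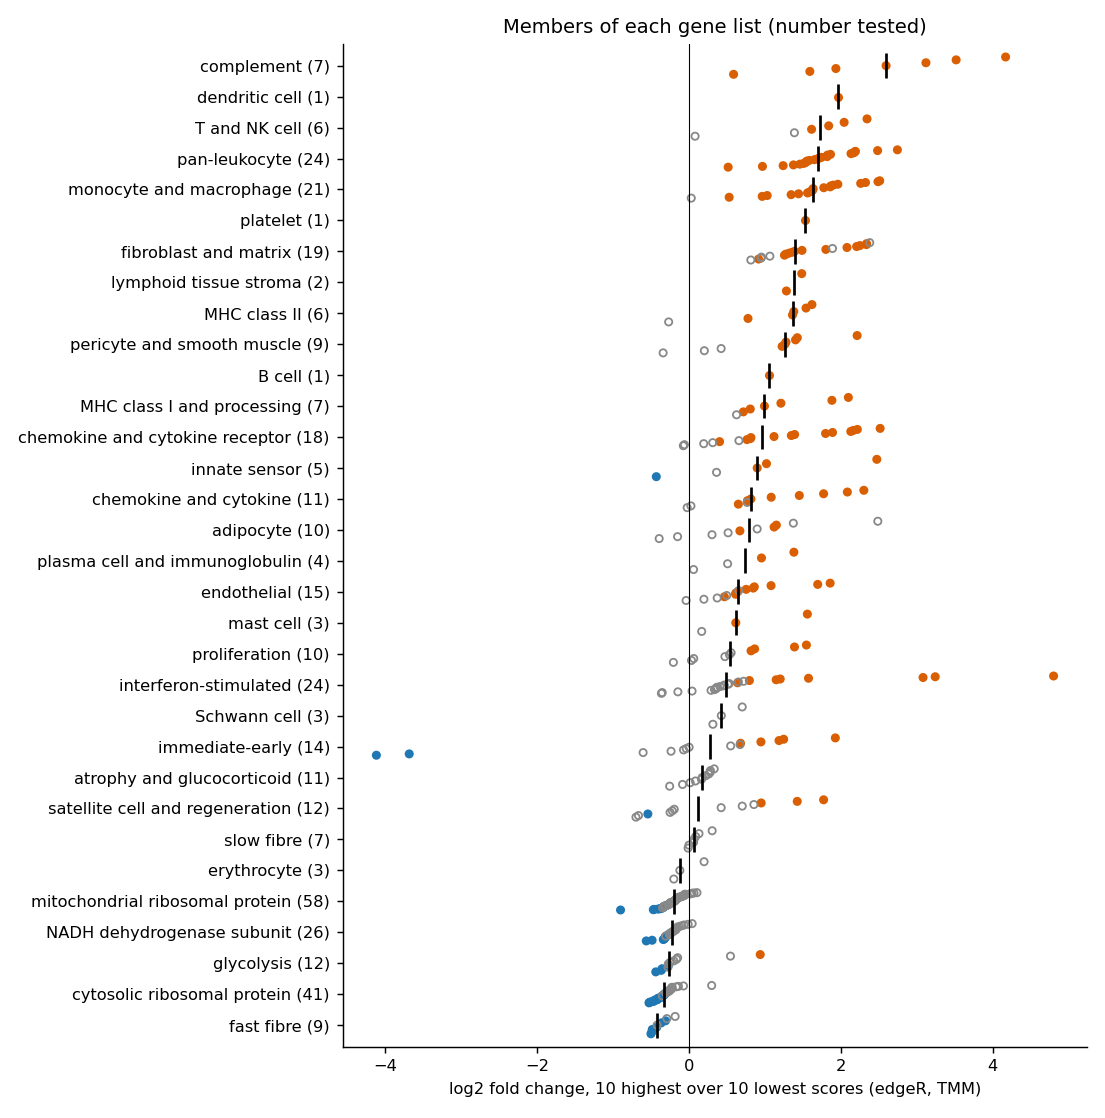
log2 fold change, 10 highest over 10 lowest scores, of each tested member of each list, with the number tested after the name. Filled points passed an adjusted p of 0.1 (orange higher, blue lower), open points did not, and black bars are medians, which run from 2.60 for complement to -0.42 for fast fibre genes.

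Genes of the vessel wall and of connective tissue rose as well, although no such gene was in the score. Of 15 tested endothelial genes 10 were higher and 0 lower (median 0.64), against 13.8% and 8.8% of all tested genes. With batch 7 rose (12.4% of all tested genes), and 1 in the fit of 10 against 10 with batch. VCAM1, the adhesion molecule to which leukocytes bind on activated endothelium, had 5.99, 7.63 and 9.94 CPM in the high group and 1.56, 2.30 and 3.28 CPM in the low group. The groups did not overlap, and VCAM1 rose by 1.70 ± 0.189 (log2, SE), with an adjusted p of 5.08e-05. LYVE1, a hyaluronan receptor of lymphatic endothelium that a subset of macrophages also carries, rose by 1.86 (adjusted p = 0.0517). PECAM1, which all endothelial cells carry, rose by 0.75 (adjusted p = 0.0231), and PLVAP was at 0.20 (adjusted p = 0.721). Of 9 pericyte and smooth muscle genes 6 were higher, against the same 13.8%, and 5 with batch, against the same 12.4%. In the fit of 10 against 10 with batch 2 were called. PDGFRB, the receptor that marks pericytes, rose by 1.43 ± 0.266 (log2, SE), with an adjusted p of 0.00163, while MYH11, the smooth muscle myosin, had a fitted change of 2.22 (adjusted p = 0.0877). MYH11 lost its call in 12 of 20 fits that left out 1 pig, with values of 1.80 to 3.17, and with batch (adjusted p = 0.165).

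Fibroblast and matrix genes had a median of 1.39, with 13 of 19 higher and 0 lower, against 13.8% and 8.8% of all tested genes. With batch 15 rose (12.4% of all tested genes), and 10 in the fit of 10 against 10 with batch (2.25%). FBN1, which encodes the microfibril protein fibrillin-1, had 27.5, 53.5 and 84.9 CPM against 3.10, 6.19 and 28.2 CPM. The overlap came from Duroc pig 2, the highest of the low group, and FBN1 rose by 2.34 ± 0.472 (log2, SE), with an adjusted p of 0.00266. FN1, fibronectin, had 56.8, 105 and 238 CPM against 4.56, 12.4 and 57.0 CPM and rose by 2.25 ± 0.644 (log2, SE), with an adjusted p of 0.0231. PDGFRA, the defining receptor of fibro-adipogenic cells in muscle, rose by 2.34 (adjusted p = 0.00175, with batch 1.01 per score unit, adjusted p = 3.94e-05). The summed level of the list was 2602 to 7488 CPM in the high group and 851 to 12755 CPM in the low group, since collagen levels varied widely in the low group. COL1A1, the main collagen chain of tendon and fascia, reached 121, 238 and 8455 CPM there (lowest, median and highest) and was not called (0.95, adjusted p = 0.644). COL3A1, the collagen of loose connective tissue, rose by 1.80 (adjusted p = 0.00257). Leaving out 1 pig at a time gave 10 (without Landrace pig 28) to 19 (without Landrace pig 22) higher genes of the 19.

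Fat and nerve gave less. In the adipocyte list 3 of 10 tested genes were higher, LPL (1.15), PPARG (1.12) and FABP4 (0.67), against 13.8% of all tested genes, and 0 were called with batch. Leaving out 1 pig at a time gave 1 (without Landrace pig 2) to 4 (without Landrace pig 22). PPARG lost its call in 5 of these 20 fits and FABP4 in 4, where FABP4 ran from 0.39 to 0.91. ADIPOQ, adiponectin, had 0.117, 1.98 and 72.8 CPM against 0.0801, 0.640 and 4.45 CPM and was not called (adjusted p = 0.339). None of the 3 tested Schwann cell genes was called. PMP22, a myelin protein, had a difference of 0.32 (adjusted p = 0.362).

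Among satellite cell genes, 3 of 12 were higher and 1 lower, against 13.8% and 8.8% of all tested genes. Leaving out 1 pig at a time gave 2 (without Duroc pig 10) to 4 (without Landrace pig 28) higher and 0 to 1 lower. PAX7, the transcription factor that defines satellite cells, had 2.75, 3.67 and 5.72 CPM against 0.896, 2.93 and 6.95 CPM, with the high range inside the low one, and its fitted change was 0.95 ± 0.284 (log2, SE), with an adjusted p of 0.0288. Without covariates it was -0.015, with an adjusted p of 0.971. CHRNA1, a subunit of the acetylcholine receptor, rose by 1.78 (adjusted p = 0.00989), and MYOG, a factor of myoblast differentiation, fell by 0.54 (adjusted p = 0.0601). Neither passed with batch (adjusted p = 0.354 and 0.108). Of 10 proliferation genes 4 were higher, against 13.8% of all tested genes. With batch 5 rose (12.4% of all tested genes), and 0 were called in the fit of 10 against 10 with batch. The higher genes were led by CENPF (1.55) and TOP2A (1.39), proteins of dividing cells. TOP2A had 2.86, 3.96 and 5.83 CPM against 0.512, 1.43 and 2.44 CPM, without overlap.

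Fast fibre genes were lower by small amounts, and slow fibre genes were not called. Of 9 tested fast fibre genes 6 were lower and 0 higher with TMM, against 8.8% of all tested genes lower, with a median of -0.42, or -0.38 relative to all genes. The lower genes numbered 4 without Landrace pig 2 and 8 without Landrace pig 14. With library size alone 2 were lower and the median was -0.18, or -0.36 relative to all genes. With batch, 0 were lower in the fit of 10 against 10 and 1 in the fit of 41 pigs, where 5.82% of all tested genes were lower. That gene was TNNC2, fast troponin C, with 8243, 9891 and 11051 CPM in the high group and 8775, 11341 and 13254 CPM in the low group. These ranges overlap, and TNNC2 fell by 0.50 on the log2 scale (SE 0.128, adjusted p = 0.0125, with batch 0.0867). TNNT3, fast troponin T, fell by 0.48 (adjusted p = 0.0130, with batch 0.105). ACTN3, the alpha-actinin of fast fibres, was called lower at -0.48 although its median CPM was higher in the high group (4302 against 3963). Without Duroc pig 10, which had 1326 CPM, its value was -0.20. None of the 7 slow fibre genes was called (median 0.07). MYL2, the slow regulatory light chain, was at 0.13 (adjusted p = 0.741), and this value was -0.34 without covariates. None of the 11 atrophy and glucocorticoid genes was called, among them TRIM63, the muscle ubiquitin ligase MuRF1 (0.17, adjusted p = 0.687).

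Of 12 glycolysis genes, HK1 was higher and 4 were lower, against 8.8% of all tested genes. The lower genes numbered 2 without Duroc pig 2 and 6 without Landrace pig 14. HK1, the hexokinase found in most cell types, had 7.64, 9.35 and 12.3 CPM against 3.08, 4.30 and 6.27 CPM, without overlap, and rose by 0.94 ± 0.158 (log2, SE), with an adjusted p of 7.52e-04. PGAM2, the muscle form of phosphoglycerate mutase, fell by 0.43 (adjusted p = 0.0367) but was not called with batch (adjusted p = 0.214). PYGM, muscle glycogen phosphorylase, fell by 0.35 (adjusted p = 0.0269) and was the 1 gene of the list that was lower with batch (adjusted p = 0.0511). With library size alone 0 glycolysis genes were lower. LDHA, lactate dehydrogenase A, was called lower at -0.36 but had a higher median CPM in the high group, and lost the call in 14 of 20 fits that left out 1 pig.

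Some ribosomal and respiratory genes were lower by small amounts, and their number changed with single pigs, the scaling and batch. Of 41 tested cytosolic ribosomal protein genes 22 were lower and 0 higher (median -0.32), against 8.8% of all tested genes. Leaving out 1 pig at a time gave 13 (without Landrace pig 24) to 29 (without Landrace pig 14). With batch 3 were lower, against 5.82% of all tested genes, and 0 in the fit of 10 against 10 with batch, against 0.341%. With library size alone 2 were lower (median -0.11), against 0.368%. Of 58 mitochondrial ribosomal protein genes 14 were lower (median -0.19), but 6 without Landrace pig 28 and 27 without Duroc pig 10. With batch 12 were lower, against the same 5.82%, and 2 in the fit of 10 against 10 with batch. Of 26 subunits of NADH dehydrogenase, the first complex of the respiratory chain, 8 were lower (median -0.22), but 4 without Landrace pig 2 and 15 without Duroc pig 10. With batch 7 were lower, against the same 5.82%, and 0 in the fit of 10 against 10 with batch. With library size alone the mitochondrial ribosomal median was 0.03 with 0 genes lower, and 0 NADH dehydrogenase genes were lower, so the direction of both families holds only relative to other genes (medians of -0.16 and -0.19 relative to all). NDUFS6, a subunit of the complex, had 33.7, 42.7 and 53.6 CPM against 37.6, 47.8 and 64.4 CPM, overlapping, and fell by 0.48 (SE 0.113, adjusted p = 0.00724, with batch 0.00818). MRPS2 of the mitochondrial ribosome fell by 0.46 (adjusted p = 0.0190, with batch 0.0505). The gene with the smallest p among those lower was PDCD5, which regulates programmed cell death. It had 31.5, 33.0 and 35.8 CPM against 32.1, 38.7 and 44.0 CPM and fell by 0.55 (SE 0.0724, adjusted p = 1.10e-04, with batch 0.0331).

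The other 14 lower genes with the smallest p changed by -0.40 (HSF2BP) to -0.88 (BAIAP2L2). With batch, BAIAP2L2 (adjusted p = 0.0759), PRADC1 (0.0612), PFDN1 (0.0717), HDGFL2 (0.0232), HSF2BP (0.0148), TESK1 (0.0236), ATPSCKMT (0.0514) and CDK2AP1 (0.0721) passed the threshold. SH3BGR (0.194), GRK4 (0.134), ZNF326 (0.173), SH3GLB1 (0.105), TMCO3 (0.128) and RPS27L (0.102) did not. BAIAP2L2, a membrane-curving protein, had 6.39, 7.37 and 9.73 CPM against 5.26, 11.2 and 12.4 CPM, ranges that overlap. SH3BGR, an SH3-binding protein of muscle, had a higher median in the high group (233 against 226 CPM), as had ZNF326 (32.1 against 28.1 CPM) and SH3GLB1 (145 against 141 CPM), although each was called lower.

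Immediate-early genes respond within minutes to stress or handling. Of 14 tested, 5 were higher and 2 lower, against 13.8% and 8.8% of all tested genes. With batch in the fit of 41 pigs 2 were higher and 1 lower, against 12.4% and 5.82%. With batch in the fit of 10 against 10, 0 were called. EGR1, a zinc finger factor, had 8.86, 32.1 and 67.2 CPM against 1.59, 5.18 and 20.2 CPM, with 6 of 10 high-score pigs above all low-score pigs, and rose by 1.93 ± 0.644 (log2, SE), with an adjusted p of 0.0479. It was not called with batch (adjusted p = 0.539). KLF4 rose by 1.25 (adjusted p = 0.00524). NR4A3, an orphan nuclear receptor induced by contraction, had 2.7, 3.63 and 15.5 CPM against 1.04, 4.61 and 147 CPM, and the fitted difference was -4.11 ± 1.02 (adjusted p = 0.0104). ATF3, a stress factor, had a fitted difference of -3.68 although its median CPM was higher in the high group (26.9 against 9.74). Both rested on Landrace pig 24, and without it the values were -1.56 (adjusted p = 0.161) and -1.05 (adjusted p = 0.486). With batch in the fit of 41 pigs, which holds Landrace pig 24, the slope of NR4A3 was -0.94 (adjusted p = 0.0368) and that of ATF3 -0.12 (adjusted p = 0.883). In the 21 middle pigs, without Landrace pig 24, the slopes were -1.16 (unadjusted p = 0.0573) for NR4A3 and -0.74 (unadjusted p = 0.257) for ATF3.

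**Figure D4:**
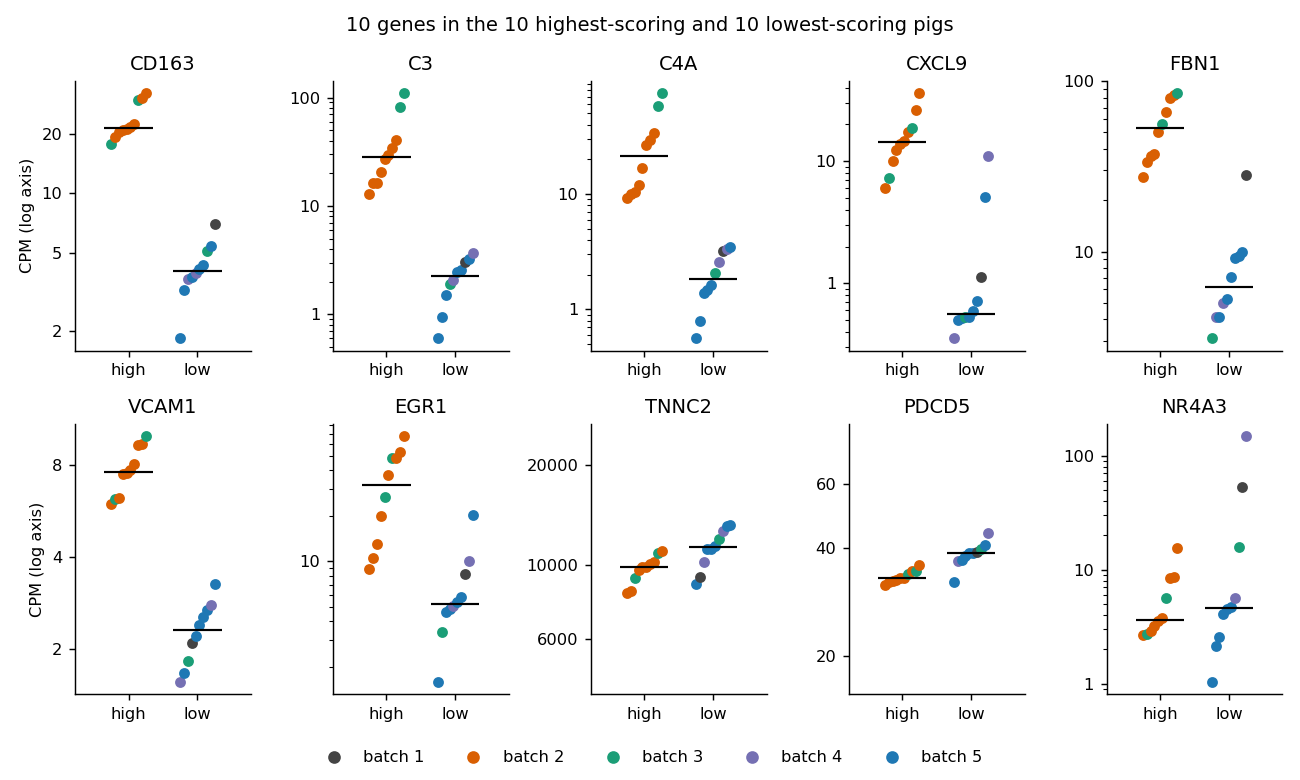
CPM on a log axis of 10 genes in the 10 high-score and the 10 low-score pigs, coloured by batch, with medians as bars. CD163, C3, C4A and VCAM1 do not overlap between the groups, while TNNC2 and PDCD5 overlap and differ by less than 1 unit on the log2 scale, and NR4A3 is highest in 1 low-score pig.

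Neither FCR nor age differed past the threshold between the groups. Mean FCR was 2.10 ± 0.0879 in the high group and 2.02 ± 0.148 in the low group (SD, n = 10 each, permutation p = 0.172, adjusted 0.206). Mean age was 154.6 ± 5.70 against 154.3 ± 6.27 days (permutation p = 0.939). All 10 high-score pigs were Landrace, against 6 of 10 (Fisher's exact p = 0.0867, adjusted 0.130).

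Over all 41 pigs the score and FCR had a Pearson's r of 0.203 (permutation p = 0.202, adjusted over 5 measures 0.253) and a Spearman's rho of 0.195 (permutation p = 0.222). In the 13 Duroc pigs r was 0.597 (permutation p = 0.0309, adjusted over 10 relations within breeds 0.0773) and rho 0.571 (permutation p = 0.0437). Without the 2 pigs farthest from the median FCR, r was 0.508. Leaving out 1 pig at a time gave an r of 0.502 to 0.690, and leaving CD79A out of the score gave 0.451 (permutation p = 0.123). In the 28 Landrace pigs r was -0.181 (permutation p = 0.358) and rho -0.103 (permutation p = 0.599), and r was 0.083 without the 2 farthest pigs. The difference between the breeds' r was 0.778 (permutation p = 0.03, 10000 permutations). Within batches the pooled breeds gave an r of 0.080 in batch 2 (15 pigs), 0.109 in batch 3 (9 pigs) and 0.461 in batch 5 (11 pigs). Within batches r was computed only from 6 or more pigs, and no batch held 6 Duroc pigs. The Duroc relation was therefore not computed within a batch. Neither it nor the difference between the breeds was adjusted for batch. The genes' slopes on the score did not differ detectably between breeds, as 0 genes passed an adjusted p of 0.1 for the term of score by breed with edgeR and with limma, and 438 (3.93%) had an unadjusted p under 0.05.

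**Figure D5:**
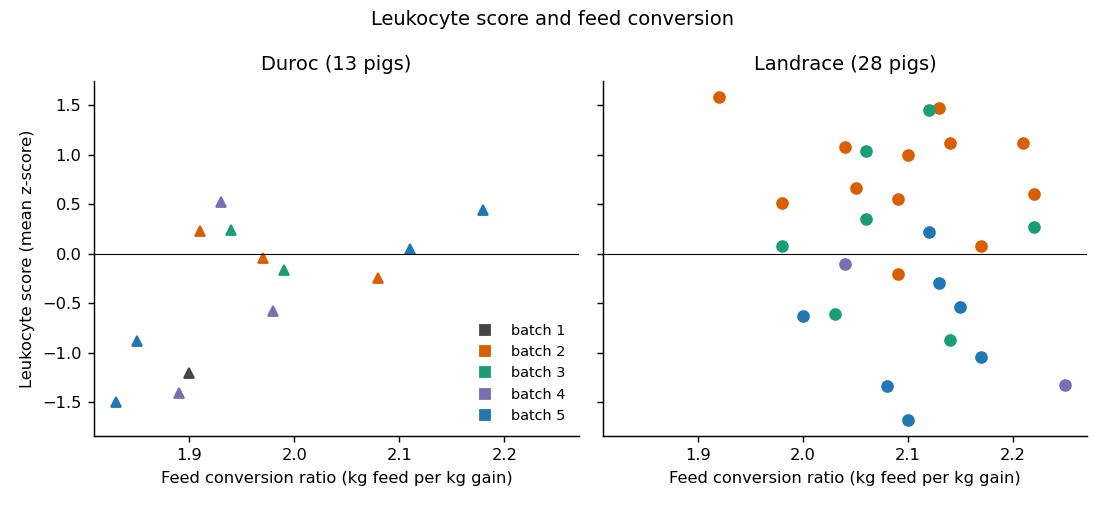
Leukocyte score (mean z-score) against feed conversion ratio (kg of feed per kg of gain), with Duroc pigs on the left and Landrace pigs on the right, coloured by batch. The Duroc points rise with an r of 0.597 and the Landrace points do not (r = -0.181).

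The score was also set against the library measures over all 41 pigs. For the total count r was 0.346 (permutation p = 0.0247, adjusted over 5 measures 0.0955) and rho 0.446, and for the share of read pairs on genes r was 0.322 (permutation p = 0.0382, adjusted 0.0955) and rho 0.458. For RIN r was 0.281 (permutation p = 0.0736, adjusted 0.123) and rho 0.251. Without the 2 pigs farthest from the median of each measure these r were 0.379, 0.361 and 0.315. With TMM factors in the score, r was 0.113 (permutation p = 0.486) for the total count and 0.0963 (permutation p = 0.555) for the share on genes. In the 28 Landrace pigs the score and RIN had an r of 0.493 (permutation p = 0.00723, adjusted over 10 relations within breeds 0.0593) and a rho of 0.539, and r was 0.594 without the 2 farthest pigs. In the same pigs r was 0.433 (permutation p = 0.0178, adjusted 0.0593) and rho 0.601 (permutation p = 0.00077) for the total count, and r was 0.431 (permutation p = 0.0166, adjusted 0.0593) and rho 0.631 (permutation p = 0.00042) for the share on genes. Within batches 2, 3 and 5, r was 0.238, 0.568 and 0.116 for the total count, 0.463, 0.413 and 0.080 for the share on genes, and 0.320, 0.421 and 0.082 for RIN. None of these 9 values within batches had a permutation p under 0.05. Depth, read assignment and RNA integrity had r above 0 with the score over all pigs, and their part in the gene results was not tested.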

How the data were processed

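Psoas major RNA of 41 boars was read as 100-base pairs from unstranded mRNA libraries. The authors trimmed the reads with Trimmomatic 0.39, aligned them with STAR 2.7.1a and deposited raw counts of read pairs per gene (Sscrofa11.1, Ensembl 96). Since strand was not used, overlapping and antisense genes cannot be told apart. Symbols were found for 14857 of 25880 gene IDs, and many list members could not be matched.

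The unstranded counts were tested with edgeR 4.0.16 (R 4.3.3), after edgeR's filterByExpr and with TMM factors, breed and RIN as terms and an adjusted p threshold of 0.1. limma 3.58.1, DESeq2 1.42.0, other scalings, filters, covariates, score definitions and group sizes were alternatives. Batch fits over 41 pigs and within batches were chosen after the data were seen. Slopes are log2 changes per unit of score. Single measures were compared with 100000 permutations (SciPy 1.17.1). All p-values treat each pig as 1 replicate. Libraries of the 20 pigs held 22588717 to 25845886 counts, so counting error matters mainly for genes at or under about 1 CPM.

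Members and gene lists were chosen with earlier results of these data known. Named were the score genes, the 15 higher and 15 lower genes with the smallest p that have a symbol, and up to 3 called genes per list with the largest change (where none was called, the most abundant). Other genes of the lists are quoted as examples chosen after their values were seen. In simulated counts for 10 against 10 (11146 genes), the fit recovered 81.5% of 200 genes changed by 1 on the log2 scale, with 12.8% of calls false, and 16% of genes changed by 0.5. No sequences are shown, since none were given with these data.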

Additional observations from a re-analysis of the deposited data

Results flagged for a closer look

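The values of 216 sets of 10 pigs were searched for a pig far from the other 9, by Dixon's test at its 95% critical value, taken on log2(CPM + 1) for genes. Chance gives about 1 in 20, and 24 sets had such a pig. The sets share their pigs, so these are not independent.

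In the high group, Landrace pig 11, the pig with the highest score, stood above the others for DOCK10 (4.47 CPM), PRDM1 (1.48), CD2 (5.83), CD3E (6.19) and CENPF (2.47). Landrace pig 16 stood above the others for MS4A2 (7.51 CPM) and PPARG (5.61) and below them for HDGFL2 (23.1) and NDUFB4 (52.1). Landrace pig 14 was lowest for CDK2AP1 (28.1 CPM), and Landrace pig 15 for CXCL10 (0.822).

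In the low group, Duroc pig 10 had the lowest share of read pairs on genes (71.1%) and stood below the others for ACTN3 (1326 CPM), SH3BGR (127.6), ATPSCKMT (1.68) and TMCO3 (5.67), and above them for CLU (35.4) and MRPL57 (28.1). Duroc pig 2, the only pig of batch 1, stood above the others for FBN1 (28.2 CPM), PDGFRA (2.01) and ACKR2 (4.41). Duroc pig 12 was highest for GBP1 (33.1 CPM), Landrace pig 22 for TNFRSF13C (1.42) and Landrace pig 23 for CCL5 (5.46).

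Without Duroc pig 10 there were 1488 higher and 1160 lower genes, of which 1237 and 667 were among the 1538 and 980. Without Duroc pig 2 there were 1534 and 921.

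The correlation of FCR with the score differed between the breeds, by 0.778 (r in Duroc minus r in Landrace, permutation p = 0.03, unadjusted). Leaving LCP1 out of the score gave an r of 0.618 in Duroc and -0.145 in Landrace.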

How the results depend on the processing

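The count of 1538 higher and 980 lower genes stayed within 1.5 times under DESeq2, limma, DESeq2 size factors, both other filters, age and FCR as further terms, 13 against 13 pigs, 10 against 10 Landrace pigs, and scores without PTPRC or LCP1. With library size alone there were 2558 higher and 41 lower genes. Without covariates 4685 genes were called, 2431 of them lower. With breed, RIN and batch 289 were called, 251 higher and 38 lower. The score as a number over 41 pigs gave 4010, with 1872 lower, and with batch 648 lower. With 7 against 7 pigs there were 1634, with 590 lower. Without CD79A in the score 631 were lower, and without C1QA 1701. Within the 12 Landrace pigs of batch 2 there were 3 (3 higher, 0 lower; limma and DESeq2 were not run there), and within the 11 pigs of batch 5 there were 5 (5 higher, 0 lower). Leaving out 1 pig at a time gave 2152 to 2916 genes, 1265 to 1784 higher and 805 to 1160 lower. Among lists whose count moved without 1 pig, the mast cell genes went from 2 higher to 0 (without Duroc pig 10), the class I genes from 6 to 4 (without Duroc pig 10), the pericyte genes from 6 to 4 (without Landrace pig 2), and the lower immediate-early genes from 2 to 0 (without Landrace pig 24). No pig of the 20 had a RIN under 7, so that alternative could not be run. In the middle pigs 48 genes were called with library size alone and 3 with batch. The batch fits over 41 pigs, within batches and in the middle pigs were chosen after seeing the data, and the cause of these changes was not tested.

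The RIN difference was 0.257 (permutation p = 0.231) with 7 against 7 and 0.323 (p = 0.0641, permutation) with 13 against 13. That in age became -1.23 days with 13 against 13 and -1.80 within Landrace, and that in FCR -0.015 within Landrace. For age, r became -0.076 without CD79A and -0.015 without C1QA. For RIN, r was 0.314 without C1QA (permutation p = 0.0443). For the total count r was 0.276 without PTPRC and 0.113 with TMM factors in the score, and for the share on genes 0.253 and 0.0963.

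Of the log2 changes of named genes, 3603 kept their direction and their side of the threshold over the alternatives, 415 lost the call and 50 changed sign. HBB became 0.040 (limma), 0.10 (library size), 0.50 (batch), 0.13 (41 pigs), 0.12 (13 against 13), 0.20 (Landrace), 0.12 (without PTPRC), 0.024 (without CD79A), 0.20 (41 pigs with batch), and lay between -0.27 and 0.11 with 1 pig left out (above 0 without Landrace pigs 23, 24 or 28, at 0.035, 0.068 and 0.11). TRIM63 became -0.072 (41 pigs), -0.12 (13 against 13), -0.23 (7 against 7), -0.13 (Landrace), -0.091 (without PTPRC), -0.57 (without C1QA) and -0.30 (41 pigs with batch). Without covariates PMP22 was -0.20, PAX7 -0.015 and MYL2 -0.34, and PMP22 was -0.037 without PTPRC. With batch in 10 against 10, GATA2 was -0.0076 and MYL2 -0.17. Within Landrace of batch 2 the slopes were 0.16 for PRADC1, 0.049 for SH3BGR, 0.033 for GRK4, 0.036 for HSF2BP, 0.10 for CDK2AP1, 0.089 for TMCO3, 0.59 for HBB, -0.057 for MYH11, -0.0091 for ACTA2, -0.23 for PPARG, -0.48 for FABP4, 0.093 for LDHA, -0.42 for TRIM63, -0.032 for EGR1, 0.029 for MRPS18C, 0.011 for MRPL57 and 0.027 for NDUFS6. Within batch 5 they were 0.0077 for SH3BGR, -0.12 for TNFRSF13C, 0.16 for HBB, -0.024 for MYL2, -0.53 for TRIM63, 0.14 for NR4A3, 0.98 for ATF3 and -0.11 for MCM5. At this depth, 20 T and NK cell, 12 B cell and 12 neutrophil genes did not pass the filter, with at most 73 read pairs.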

Other observations

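Gene families were also counted by their symbols, some of whose members are in the lists above (ITGB2, ITGAL, ITGAM, ITGB3, DOCK2, COL3A1, PSMB8 and PSMB9 among them), chosen after the calls were seen and given without a test. Of 28 tested ADAM and ADAMTS proteases, which cut cell surface and matrix proteins, 17 were higher and 0 lower in the high-score pigs (median 0.98), and 14 rose with batch in the fit of 41 pigs. Of 21 collagen genes 13 were higher and 0 lower (median 1.32), with 12 rising with batch. Of 22 integrin genes 12 were higher and 0 lower (median 1.08), and of 9 DOCK exchange factors 7 were higher. Among 22 semaphorins and plexins, guidance proteins of axons and vessels, 8 were higher and SEMA4D was lower. These counts are to be read against 13.8% of all tested genes being higher and 8.8% lower, and those with batch against 12.4% rising.

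Most proteasome genes were not called. The counts of this paragraph are also to be read against 13.8% of all tested genes being higher and 8.8% lower. PSMB8 and PSMB9, the inducible subunits, were the 2 higher genes of 33, and 5 subunits of the regulatory particle (PSMC1, PSMC3, PSMC5, PSMD3 and PSMD11) were lower, 0 of them with library size alone. Of 22 cytochrome c oxidase genes 4 were higher and 3 lower, against the same 13.8% and 8.8%. Among 186 ZNF zinc finger genes 9 were higher and 14 lower, against the same shares. Of 15 SRSF and SF3 splicing genes 0 were called.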
